A study of Mus musculus with 33 samples.

Results

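Sox2 regions that carried the active histone mark H3K27ac on day 2 of reprogramming, but had no peak of it in a day 0 fibroblast sample, were described here. They were chosen by overlap of the deposited peak lists. Peaks of the 2 day 2 Sox2 samples were merged where they shared a base, merged regions hit by a peak of each sample were kept, and of these the regions that overlapped a day 2 H3K27ac peak and no day 0 H3K27ac peak were taken. The merge gave 57502 regions, of which 30735 were hit in both Sox2 samples. The rule took 5248 of them, or 17.1%. Among the rest, 2872 overlapped H3K27ac peaks on both days, 1480 on day 0 only and 21135 on neither day. These counts follow from the rule and are a description of the peak lists, without a test.

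SOX2 is a transcription factor with an HMG box, which binds the minor groove of DNA and bends it, and it is known for binding sites that are still wrapped in nucleosomes. It maintains pluripotent and neural stem cells and is one of the factors that turn fibroblasts into induced pluripotent stem cells. H3K27ac, acetylation of lysine 27 of histone H3, is written by the coactivators p300 and CBP on nucleosomes of active promoters and enhancers. The mark sits on nucleosomes, and the bound stretch of an active enhancer is commonly depleted of them.

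The Sox2 peaks came from 2 ChIP-seq samples (sequencing of DNA precipitated with an antibody) of SKM secondary MEFs on day 2. These are mouse embryonic fibroblasts carrying the factors Sox2, Klf4 and Myc (SKM), cultured with doxycycline in mouse ES medium. The day 2 H3K27ac sample, with 1 replicate, and 2 day 2 Klf4 samples came from the same kind of cell. The day 0 H3K27ac sample, also with 1 replicate, is labelled OG2 MEFs, fibroblasts of a mouse line with a Pou5f1 reporter. Day and cell source therefore change together between the H3K27ac samples and cannot be told apart. No label says that samples of a group came from separate cultures. RNA-seq of SKM secondary MEFs gave Sox2 at 113 and 72 counts in the 2 libraries of day 0 and at 12744 and 19410 counts in the 2 of day 2. These libraries held 18501539 to 20102260 counts. The series' design text speaks of populations sorted for EGFP, but the titles of these libraries, unlike those of later MEF days, do not name GFP. Klf4 stood at 817 and 779 counts and then at 21532 and 23998 counts. Both factors were far higher in each day 2 library than in either day 0 library. Transgene and endogenous transcripts cannot be told apart in these counts.

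The lists differed in length and strength. After peaks on unplaced sequence were left out, the Sox2 samples had 39543 and 49182 peaks, with a median fold enrichment over background of 5.08 and 5.43. The H3K27ac list of day 0 held 63795 peaks and that of day 2 held 42025, so the list in which the members have no peak was the longer one. Where a day 2 peak overlapped a day 0 peak, 86.9% had the higher fold on day 0, with a median of 24.3 on day 0 against 8.38 on day 2. A share of 49.6% of the day 2 peaks, 20825 in number, overlapped no day 0 peak. Fold enrichment is the authors' value within a sample and was not scaled between samples. The read depth behind the peaks is unknown, and intervals given with shares are exact 95% binomial intervals that cover the counting of regions only.

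At the gaining regions the new mark lay beside the Sox2 summit and seldom on it. The nearest summit of an overlapping day 2 H3K27ac peak was a median of 329 bp from the Sox2 summit, taken as the midpoint of the summits of both replicates. The middle 50% of regions lay between 263 and 418 bp. It was within 150 bp in 281 regions, or 5.35%. The Sox2 summit itself fell inside an overlapping day 2 H3K27ac peak in 435 regions, or 8.29%. In 3082 regions, or 58.7%, H3K27ac summits stood on both sides within 1 kb, counting day 2 peaks with or without overlap. Among the regions marked on neither day, 898 or 4.25% had day 2 summits on both sides within 1 kb, a contrast that the rule largely fixes, since it asked the former for a day 2 peak and the latter for none.

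**Figure D1:**
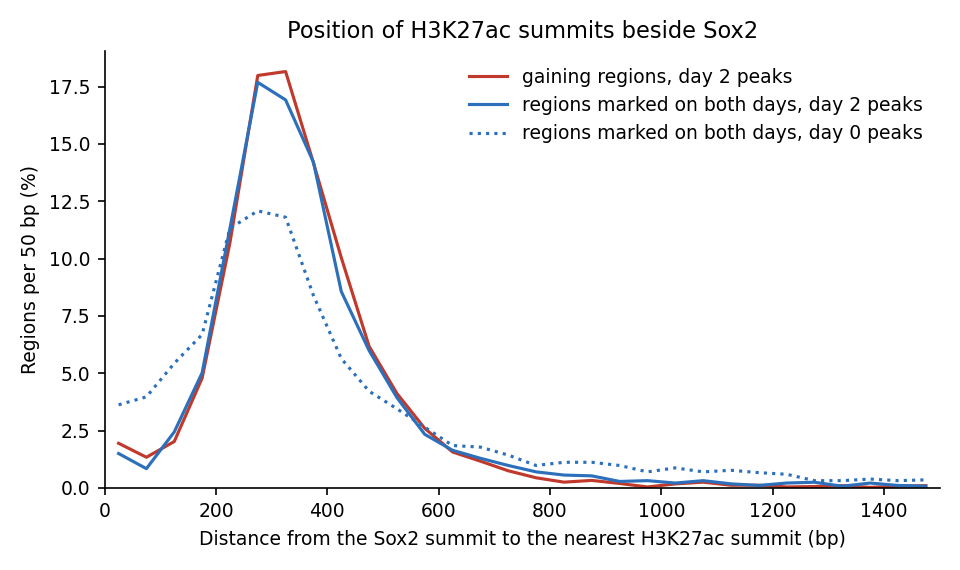
Distance in bp from the Sox2 summit to the nearest summit of an overlapping H3K27ac peak, as the percentage of regions per 50 bp, for the 5248 gaining regions on day 2 and for the 2872 regions marked on both days. The day 2 curves peak near 300 bp and are low at the Sox2 summit, and the dotted day 0 curve is lower at its top and higher near the summit.

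At the regions marked on both days the same was measured in both samples, with day 0 taken from OG2 MEFs. On day 2 the distance was a median of 333 bp, close to that of the gaining regions, and 1676 of 2872 regions, or 58.4%, had summits on both sides. On day 0 the later Sox2 summit lay inside an H3K27ac peak in 78.2% of these regions, against 17.8% on day 2. Summits on both sides were present at 20.1% of them on day 0. The peaks themselves were wider on day 0, with a median of 1754.5 bp against 778 bp on day 2, and the part of peak width in this difference was not tested. The median distance to the nearest summit on day 0 was 327 bp.

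The rule asks the mark to reach into the Sox2 region, and it reached in by a short stretch. The median overlap with the day 2 peaks was 88 bp, or 19.9% of the region, and 2839 members, or 54.1%, overlapped by under 100 bp. A single day 2 peak was touched by 3857 members and 2 or more peaks by 1391. Outside the rule, 2697 of the regions marked on neither day had a day 2 peak within 100 bp and 4068 had one within 1 kb. With a fixed window of 500 bp to each side of the Sox2 summit (the wide window) in place of the region, 8502 of 25800 windows without a day 0 peak held a day 2 peak, a share of 33.0% (32.4 to 33.5%). Of the members, 5034 or 95.9% were among them. With a narrow window of 100 bp to each side, 1580 windows gained the mark. The number of gaining regions thus depends on how far from Sox2 the mark is looked for.

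By the rule as given, Sox2 peaks were higher at the gaining regions than at the other Sox2 regions in both replicates, but not under stricter demands on the place of the mark. The median fold enrichment of the gaining regions was 5.78 in replicate 1 (quartiles 4.82 and 6.85) and 6.48 in replicate 2 (quartiles 5.24 and 7.88). The other Sox2 regions together had medians of 5.14 and 5.77. The difference of medians was 0.64 in replicate 1 and 0.70 in replicate 2, with an SD of 0.0451 over the 2 samples. Both values rest on the same regions and the same H3K27ac lists, so this SD does not measure how uncertain the difference is. Where day 2 peaks had to cover 50% of the region, the difference of medians was 0.0761 in replicate 1 and turned to -0.0479 in replicate 2. In the narrow window it was 0 in replicate 1 and turned to -0.0479 in replicate 2. By class, the medians in replicates 1 and 2 were 5.23 and 5.60 for regions marked on both days. They were 5.08 and 5.49 for regions that lost the mark, and 5.14 and 5.78 for regions marked on neither day. The ranges overlapped, with gaining regions between 2.44 and 12.5 in replicate 1 and regions marked on neither day between 1.87 and 12.3. The gaining regions were also wider, with a median of 468 bp against 402 bp for regions marked on both days. The median was 367 bp for regions that lost the mark and 379 bp for those marked on neither day. The difference in fold was not tested over the 2 samples, nor was the part of width in it.

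**Figure D2:**
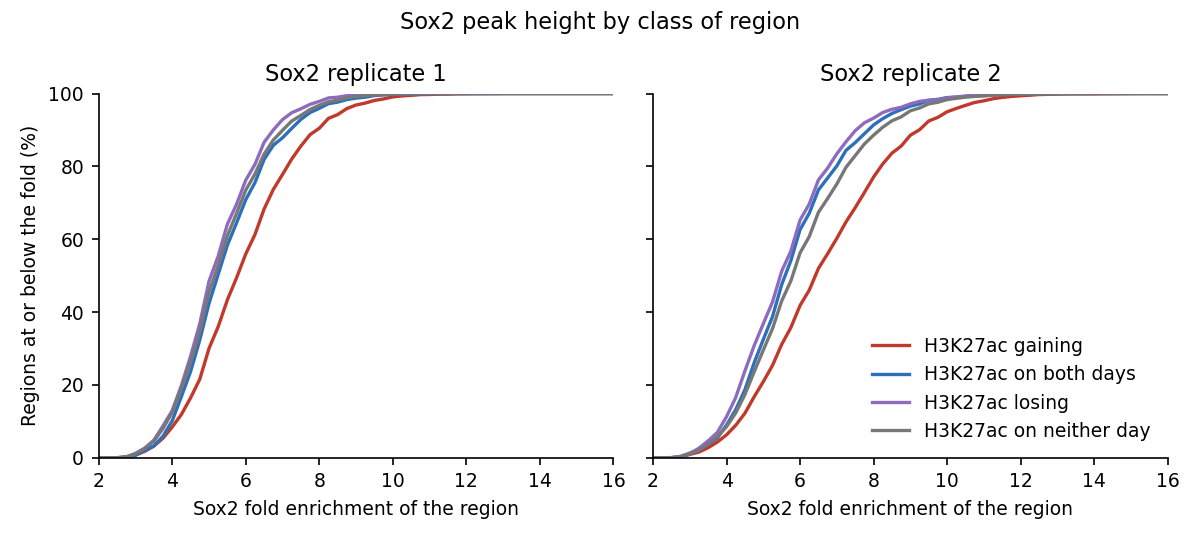
Cumulative percentage of Sox2 regions at or below a given Sox2 fold enrichment in each replicate, for the 5248 gaining regions, the 2872 marked on both days, the 1480 that lost the mark and the 21135 marked on neither day. The curve of the gaining regions lies to the right of the others in both replicates, with medians of 5.78 and 6.48.

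Seen the other way round, the share of regions that gained the mark rose with Sox2 peak height. Of the 26383 Sox2 regions without H3K27ac on day 0, 19.9% gained it (19.4 to 20.4%). Ranked by replicate 1 and split into 5 bins of about equal size, the share went from 13.5% in the lowest bin, with folds up to 4.34, to 31.9% in the highest, with folds from 6.50. Ranked by replicate 2, it went from 15.1% to 31.2%, and in both replicates each higher bin had a higher share than the one below. The strongest regions were also wider, with a median of 441 bp against 380 bp in the lowest bin of replicate 1. In the wide window the share rose from 23.6% to 49.3% by replicate 1 and from 25.02% to 47.7% by replicate 2. In the narrow window it did not rise, with 5.91% in the lowest and 5.12% in the highest bin by replicate 1, and 6.51% and 5.24% by replicate 2.

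**Figure D3:**
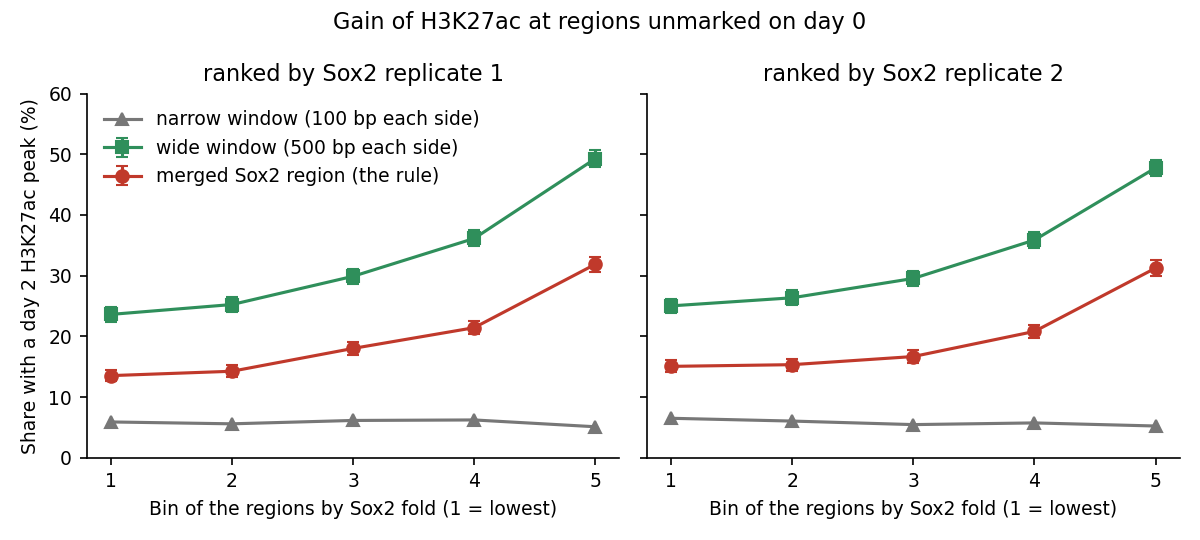
Percentage of Sox2 regions with a day 2 H3K27ac peak, in 5 bins by Sox2 fold enrichment in replicate 1 or 2, among regions without a day 0 peak (merged region or narrow window) or wide windows without one. Bars on the merged regions and wide windows are exact 95% binomial intervals, and the share rises to 31.9% and 31.2% by the rule, rises further in the wide window and lies between 5.12% and 6.51% in the narrow one.

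Regions seen in a single Sox2 sample gained the mark less often. Of merged regions without the day 0 mark, 558 of 6878 hit in replicate 1 only had a day 2 peak, or 8.11% (7.48 to 8.78%). For replicate 2 only, it was 1010 of 15873, or 6.36% (5.99 to 6.75%). Single Sox2 peaks of all kinds had a median width of 302 bp in replicate 1 and 306 bp in replicate 2. Merged regions hit in both samples had a median of 393 bp, and a wider region can touch a mark more easily. The part of width and Sox2 height in the lower shares was not tested. Summits of the replicates lay within 50 bp of each other in 60.6% of the gaining regions and in 62.1% of those marked on neither day. Each replicate contributed 1 peak in 95.8% of the gaining regions, whose median width was 468 bp. Across the 5248 regions, the folds of the replicates had a Spearman correlation of 0.335, given as a description because the points share their libraries.

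Among the regions that gained it, the height of the mark hardly followed the height of the Sox2 peak. The highest overlapping day 2 H3K27ac peak had a median fold of 7.40 (quartiles 5.66 and 10.1), and 3974 members, or 75.7%, had one with a −log10 q of at least 5. The Spearman correlation between the H3K27ac fold and the Sox2 fold was 0.0488 for replicate 1 and 0.0290 for replicate 2, over 5248 regions. At regions marked on both days, the day 2 peak was higher, with a median fold of 12.3, and on day 0 it had been at 21.9.

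From the side of the mark, the higher a new H3K27ac peak was, the more often it touched a Sox2 region. Of the day 2 peaks without a day 0 peak, 6293 of 20825 did so, or 30.2% (29.6 to 30.8%), against 17.8% (17.2 to 18.3%) of the day 2 peaks that had a day 0 peak. In the lowest of 5 bins of the new peaks by fold, 12.5% touched a Sox2 region. In the highest bin, with folds from 7.90, it was 59.4% (57.9 to 60.9%). By the peaks of Sox2 replicate 1 alone the highest bin had 53.9%, and by replicate 2 alone 58.1%. Among peaks already present on day 0 the share went from 6.86% to 24.3%. Peak width rose along with fold, from a median of 234 bp to 572 bp among the new peaks and from 262 bp to 1238 bp among the others. The highest bins also differ in fold, from 7.90 to 34.7 among the new peaks and from 15.8 to 44.0 among the others. The part of peak width and fold in these shares was not tested. In all, the members touched 6371 day 2 peaks, 320 of which held 2 members and 1 of which held 3.

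By the rule no gaining region overlaps a day 0 H3K27ac peak, and most lay more than 1 kb from one. They were nearer to such peaks than regions marked on neither day. The distance of the gaining regions to the nearest day 0 H3K27ac peak was a median of 15.1 kb (quartiles 4.22 and 41.5 kb). For regions marked on neither day it was 25.1 kb (7.89 and 73.0 kb). Within 1 kb of a day 0 peak lay 488 members, or 9.30%, and beyond 50 kb lay 1120, or 21.3%. In 227 members, or 4.33%, the highest overlapping day 2 peak was itself in contact with a day 0 peak outside the Sox2 region. In the other 5021 that highest peak was separate, and lower overlapping day 2 peaks were not checked. The share of unmarked Sox2 regions that gained the mark fell with distance. It was 33.1% (30.7 to 35.5%) within 1 kb, 25.4% from 1 to 5 kb, 21.5% from 5 to 20 kb, 19.7% from 20 to 50 kb and 13.7% (13.0 to 14.5%) beyond. The median Sox2 fold of the gaining regions in replicate 1 was 5.47 within 1 kb, rose to 5.94 from 20 to 50 kb and was 5.71 beyond. In replicate 2 it went from 5.95 within 1 kb to 6.59 from 20 to 50 kb and 6.65 beyond. The median fold of the mark was 8.78 within 1 kb, between 7.34 and 7.53 in the bins from 1 to 50 kb, and 6.97 beyond. Of the 488 members within 1 kb, 221 had their highest day 2 peak in contact with a day 0 peak, against 6 from 1 to 5 kb and 0 farther away. The part of these contacts in the higher fold was not tested.

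Klf4, a zinc finger factor that binds GC-rich motifs and was raised together with Sox2, was not used by the rule. Its peak lists are weak: 6013 and 5966 peaks with a median fold of 3.17 and 2.76, of which 7 and 0 had a q-value under 0.05. A label field of both samples also names a Sox2 antibody, so that Klf4 and Sox2 signal cannot be told apart in them from the labels. Both replicates shared 1250 Klf4 regions, and 76.7% of these overlapped a Sox2 region. Of the gaining regions, 249 or 4.74% (4.19 to 5.36%) overlapped a Klf4 region of both replicates. Over all Sox2 regions it was 3.02%. Among regions marked on both days it was 11.6% (10.4 to 12.8%), among those that lost the mark 4.05% (3.11 to 5.19%) and among those marked on neither day 1.35% (1.20 to 1.52%). Gaining regions thus stood between the regions with called peaks on both days and those with none on either day. Their interval overlapped that of the regions losing the mark. With peaks of Klf4 replicate 1 alone, 15.8% of the gaining regions were hit, against 10.9% of all Sox2 regions. With replicate 2 alone it was 14.2% against 9.43%.

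Where a Klf4 region lay on a Sox2 region, the mark was gained more often. Of 535 unmarked Sox2 regions with Klf4 in both replicates, 249 gained H3K27ac, or 46.5% (42.3 to 50.9%). Without it, 4999 of 25848 did, or 19.3% (18.9 to 19.8%). With a Klf4 peak in 1 replicate only the share was 33.1%, and with none it was 17.5%. Among the unmarked regions Klf4 was also more frequent at high Sox2 peaks, at 4.99% in the highest and 0.763% in the lowest bin by replicate 1. Among regions below the median Sox2 fold of replicate 1, 34.5% gained the mark with Klf4 (26.0 to 43.7%, 119 regions) and 14.4% without. Above that median it was 50% (45.1 to 54.9%) and 24.4%. Ranked by replicate 2, it was 41.2% against 15.2% below the median and 49.0% against 23.5% above. Each of these ranges still spans many Sox2 folds, and the part of Sox2 height in the difference was not tested. In the wide window the shares were 64.4% (60.2 to 68.5%) with and 32.3% (31.7 to 32.9%) without Klf4. Only H3K27ac was looked up in that window. Klf4 overlap was still that of the merged Sox2 region and so depends on its width. At the members with Klf4 the mark was higher, with a median fold of 8.72 against 7.34, and H3K27ac summits stood on both sides in 74.3% against 58.0%. Their day 2 peaks were also wider, with a median of 543 bp against 444 bp, and 38.6% against 25.9% touched 2 or more. The part of Sox2 height and of the width and number of peaks in these differences was not tested.

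**Figure D4:**
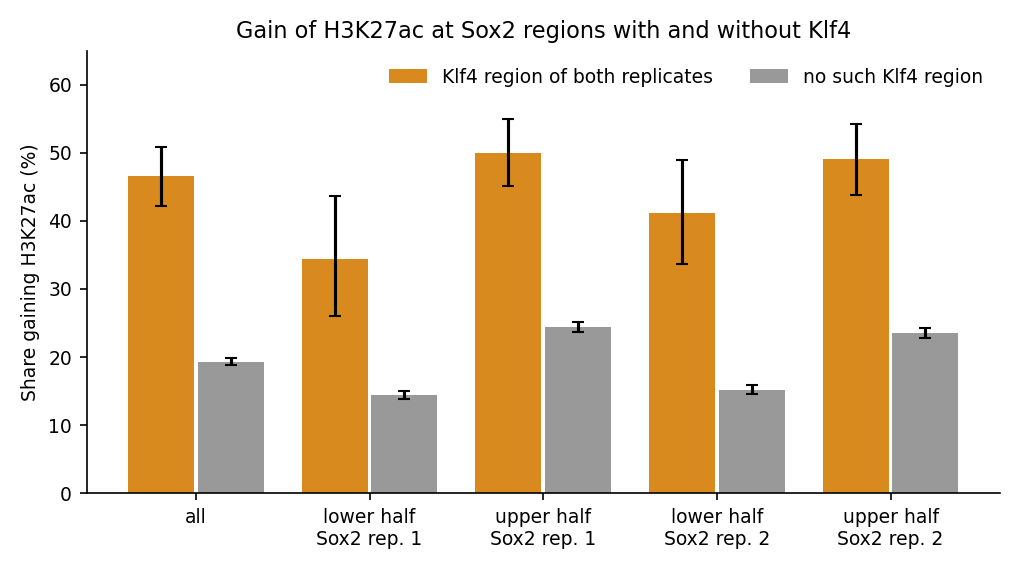
Percentage of Sox2 regions unmarked on day 0 that gained H3K27ac, with and without an overlapping Klf4 region of both replicates, for all regions and for those below or above the median Sox2 fold of each replicate; bars are exact 95% binomial intervals. The share is 46.5% with and 19.3% without Klf4 over all regions. The pairs below and above a median split these same regions, and the bars cover the counting of regions only.

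Single regions are named by position in mm9, the mouse genome build of the peak lists. Gene positions and genome sequence of that build were not used here, so no gene is assigned to a region and no sequence is shown. The members with the highest Sox2 peaks were ranked by the lower of both replicates. The strongest was chr11:67221652-67222343, with Sox2 folds of 12.2 and 13.5 in replicates 1 and 2, summits 5 bp apart and a Klf4 region. Its day 2 H3K27ac peak had a fold of 9.76, with H3K27ac summits on both sides. The nearest summit of an overlapping peak was 386 bp away, and the nearest day 0 peak was 14.1 kb off. The next was chr8:127727812-127728480, with Sox2 folds of 11.9 and 11.9, also with Klf4, and a modest H3K27ac fold of 5.85. At chr8:7286607-7287028 the Sox2 folds were 11.6 and 13.1 and the H3K27ac fold was 14.6. At chr2:37706470-37706802 they were 12.5 and 11.4, with an H3K27ac fold of 6.78.

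The 10 members with the highest Sox2 peaks had H3K27ac folds from 5.85 to 19.3, with a median of 8.78, near the 7.40 of all members. They lay between 7.07 and 68.5 kb from the nearest day 0 peak. Klf4 regions of both replicates covered 3 of them, and 7 had a Klf4 peak in at least 1 replicate, where 4.74% and 23.7% of all gaining regions did. In each of the 10, the nearest summit of an overlapping H3K27ac peak was 230 to 427 bp from Sox2.

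The 10 members with the highest H3K27ac were ranked separately. The highest was chr6:51382567-51383015, with an H3K27ac fold of 34.7 in a peak of 1430 bp and Sox2 folds of 6.58 and 6.36, and its nearest day 0 peak was 33.5 kb away. The next was chr11:119799081-119799505, with an H3K27ac fold of 29.3 and Sox2 folds of 6.97 and 8.57, at 3.18 kb from a day 0 peak. At chr4:21615115-21615824 the H3K27ac fold was 27.8 and the Sox2 folds were 5.46 and 9.10, with the nearest day 0 peak at 38.3 kb. Of these 10 members, 6 lay within 1 kb of a day 0 peak, and in all 6 the day 2 peak was in contact with it. An example is chr1:52782677-52783242, 172 bp from a day 0 peak, with an H3K27ac fold of 29.0 and Sox2 folds of 4.34 and 4.79. In the other 4 members the highest day 2 peak was separate. None of the 10 had a Klf4 region of both replicates, near the 4.74% of all gaining regions, and 6 had a Klf4 peak in 1 replicate or more, against 23.7%.

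Some gaining regions were neighbours. Joined where the gap was at most 12.5 kb, the members fell into 3842 single regions and 656 groups of 2 or more, which held 1406 members, or 26.8%. Most groups held 2 members, 65 held 3, 10 held 4, and the largest held 6 and 7. Within chr17:56659460-56681887, a span of 22.4 kb, all 7 Sox2 regions gained the mark, 4 of them overlapped a Klf4 region, and 13 day 2 peaks and 0 day 0 peaks were present. H3K27ac folds of its members ran from 13.9 to 25.8, all above the median of the gaining regions. Its region at chr17:56659460-56660221 had Sox2 folds of 10.7 and 11.3 and is among the 10 highest for Sox2. Its neighbour chr17:56660363-56661205 had Sox2 folds of 8.71 and 9.97 and the highest mark of the group, at 25.8. The widest of all members, chr17:56671660-56674287, is also there, 2628 bp long, with 4 Sox2 peaks in replicate 1 and 1 in replicate 2. The nearest day 0 peak was 12.0 kb away.

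**Figure D5:**
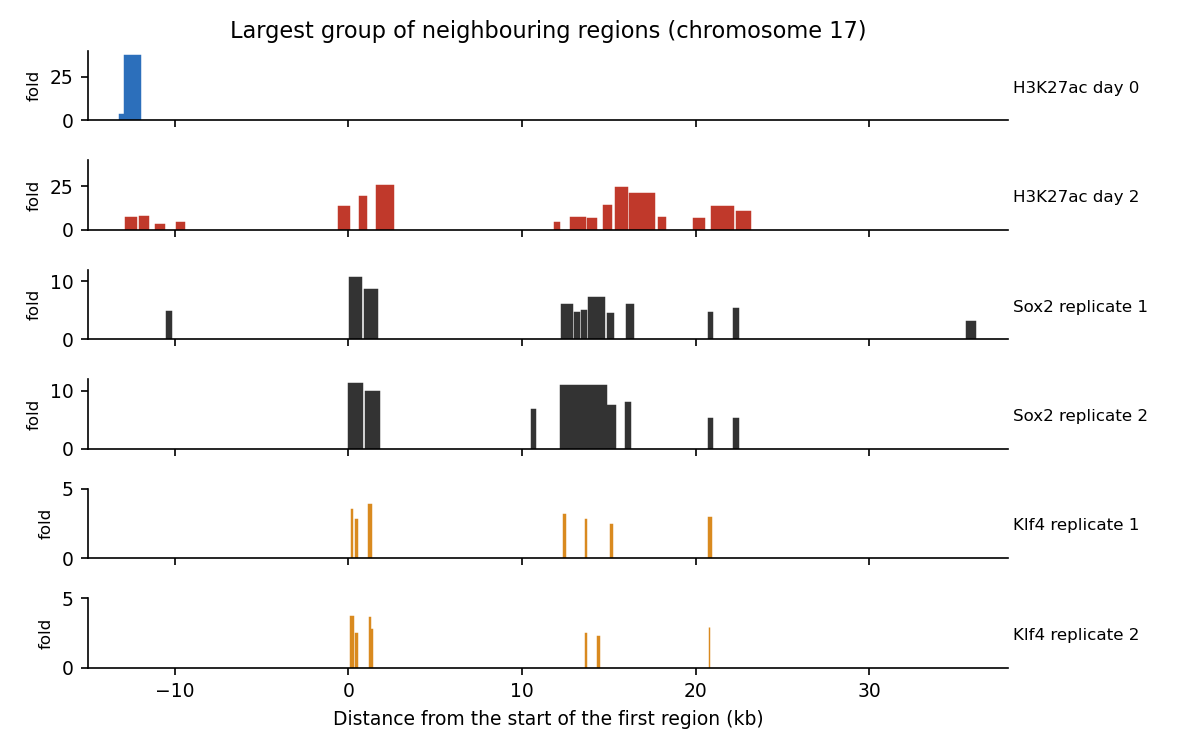
Peaks of each list around the largest group of gaining regions, on chromosome 17, by distance in kb from the start of its first region; bars span the peaks and their height is the fold enrichment, on a scale of its own for each mark or factor. The day 2 H3K27ac peaks, with folds up to 25.8, lie between, beside and in part over the Sox2 peaks. In the widest region they cover 1521 of 2628 bp. Day 0 peaks are seen only at the left edge, 12.0 kb or more away.

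The second largest group, chr16:22893827-22918414, held 6 members in 24.6 kb, again every Sox2 region of the span. It had 11 day 2 peaks and 0 day 0 peaks, H3K27ac folds from 8.14 to 16.7 and no Klf4 region of both replicates. By the lower of both replicates its strongest Sox2 site was chr16:22905094-22905550, with folds of 9.0 and 8.65. Further wide members were chr3:137487396-137488886, of 1491 bp, with Sox2 folds of 5.92 and 6.09 and an H3K27ac fold of 8.46, and chr1:113662082-113663556, of 1475 bp, with Sox2 folds of 4.44 and 6.49 and an H3K27ac fold of 6.60.

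Across the 19 autosomes the share of Sox2 regions that gained the mark ran from 13.8% (12.3 to 15.5%) on chromosome 4 to 18.3% (16.2 to 20.5%) on chromosome 15, with a median of 17.8%. The interval of chromosome 4 lay below that of chromosome 1, at 18.2% (16.7 to 19.9%). It overlapped those of other autosomes, such as chromosome 14 at 15.8% (13.9 to 17.8%). Chromosome 4 is named because it was the lowest of the 19, and differences between chromosomes were not tested. The X chromosome was lower than each autosome. Of its 175 Sox2 regions 6 gained the mark, or 3.43% (1.27 to 7.31%), while 160 were marked on neither day, 1 on both days and 8 on day 0 only. The X held 1.99% of the day 0 H3K27ac peaks and 1.88% of those of day 2, and 0.695% and 1.20% of the Sox2 peaks in replicates 1 and 2. Of its 790 day 2 peaks, 283 or 35.8% overlapped no day 0 peak, against 49.6% over all chromosomes.

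Regions at the edge of the rule show how close the classes lie. The member chr12:88723396-88723947 abutted a day 0 peak, with 0 bp between them, and had Sox2 folds of 3.57 and 6.16 and a day 2 H3K27ac fold of 9.76. The member chr1:84801182-84801482 overlapped its day 2 peak, of fold 13.3, by 1 bp. Just outside, chr16:12032572-12032925 shared 1 bp with a day 0 peak of fold 4.49, had Sox2 folds of 5.14 and 6.32 and a day 2 fold of 6.78, and so counts as marked on both days. Such cases were few on the day 0 side, with 93 members within 100 bp of a day 0 peak, and many on the day 2 side, as given above.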

How the data were processed

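Members, lists and alternatives were chosen with earlier results of these data known. The submitters' processing notes name Bowtie2, MACS2 and the build mm9 for the ChIP samples, without their roles; thresholds and use of inputs are not given in the sources used here. The deposited lists give fold enrichment over background (a ratio) and −log10 p and −log10 q per peak, as the authors made them, one list per sample. The RNA values, as deposited by the authors, are read counts per gene (STAR 2.5.1b is named in the submitters' processing notes), and 0 columns lacked a sample.

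Peaks on unplaced sequence were dropped. A shared base counted as overlap. A region took the highest fold of its peaks in each replicate. Overlaps, distances and exact binomial intervals were computed in Python 3.11.15 with numpy 2.4.6, pandas 2.3.3 and scipy 1.17.1, and the overlap code was tested on simulated data. Regions are not replicates and H3K27ac had 1 sample per day, so differences between region classes carry no test. The named regions are those of the highest Sox2 fold (the lower replicate), of the highest day 2 H3K27ac fold, the widest and those at the edge of the rule; groups of neighbours were added after their values were seen. Tests of genes next to the regions, and distances to gene starts, were planned and not made, because the gene table used here is of GRCm38, in which the last gene on chromosome 7 ends at 145324059, while peaks reach 152520961.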

Additional observations from a re-analysis of the deposited data

How the results depend on the processing

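The number of gaining regions was 5248. It was 4760 with no day 0 peak allowed within 1 kb and 4908 to 5632 when either Sox2 replicate was left out. It fell to 2873 at a −log10 q of at least 5 and to 693 when day 2 peaks had to cover 50% of the region. Fixed windows, chosen after seeing the data, gave 1580 (100 bp to each side of the summit, narrow) and 8502 (500 bp, wide).

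The Sox2 fold of gaining minus other regions, 0.64 in replicate 1 and 0.70 in replicate 2, was 0.40 and 0.62 at the stricter q. With 50% covered it was 0.0761 in replicate 1 and turned to -0.0479 in replicate 2. In narrow windows it was 0 and turned to -0.0479, and in wide windows it was 0.56 and 0.71. Leaving out the other Sox2 replicate gave 0.62 for replicate 1 and 0.81 for replicate 2.

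The share of gaining regions with a Klf4 region, 4.74%, was 4.18% with 50% covered, 4.85% with no day 0 peak within 1 kb, 3.73% in narrow windows and 3.96% in wide windows. For the wide windows, Klf4 overlap was still that of the merged Sox2 region. Leaving out 1 replicate of Sox2 or Klf4 gave 3.91% to 15.8%, the highest when Klf4 replicate 2 was left out, since a peak of 1 Klf4 sample then sufficed. At the stricter q in every list it has no value, because no Klf4 peak reaches that q. With all Klf4 peaks kept, an alternative added after seeing the data, it was 6.82%. The cause of the other changes was not tested.

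No paired analysis was possible because these results come from no test. The alternatives for genes next to the regions and for distance to gene starts were not run, as those results were not made. Each H3K27ac list is 1 sample of unknown depth, so absence of a day 0 peak means that none was called.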
